A study of Homo sapiens with 17 samples.

Results

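The extracellular matrix genes described here were the collagens, laminins and integrins, together with the matrix glycoproteins tenascin-C (TNC), fibronectin (FN1), the nidogens (NID1 and NID2) and perlecan (HSPG2). Members were all protein-coding genes whose whole symbol had the form of a collagen chain, a laminin chain or an integrin subunit, or was 1 of the glycoprotein symbols. The rule used no measured value. It gave 82 members of 60662 genes in the count table, of which 19922 were protein coding: 44 collagens, 12 laminins, 21 integrins and 5 glycoproteins.

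Collagens are triple helices of chains that build fibrils or networks in the matrix, and laminins are trimers of an alpha, a beta and a gamma chain that assemble into basement membranes. Nidogen and perlecan link the laminin network with the type IV collagen network. Integrins are heterodimers of an alpha and a beta subunit through which cells bind these ligands, and the matrix under the endometrial epithelium is what an implanting embryo meets after it attaches.

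Total RNA was sequenced from 17 cultures of Ishikawa cells, an endometrial adenocarcinoma line of epithelial origin, grown in charcoal-stripped serum and treated for 24 h. The groups were control (medium alone, n = 3), vehicle control (titled Vehicle Nap EtOH, n = 3, with 70% ethanol named in the protocol), Vehicle Nap (n = 2) and P4 (progesterone, titled Vehicle Nap P4, n = 3). The labels do not say what Nap is, and name ethanol in the titles of the vehicle control cultures but not in those of the P4 cultures. The sources differ on the P4 concentration, with 0.1 and 1.0 mg/ml in the protocol of the labels and a different one in other parts of the study's text. Another 6 libraries carried PSAT1 in their labels, but 3 titled PSAT1 had a count column headed PSAT1_P4 and 3 titled PSAT1_P4 had a column headed PSAT1. Both labels split these 6 libraries into the same sets of 3, so the sets were compared with each other only and neither is called P4 treated. The model is a single cell line in culture, with no stroma.

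Gene counts summed to between 4999521 (vehicle control replicate 1) and 19704493 per library, and the members took 0.418 to 0.569% of them. The mitochondrial rRNA MT-RNR2 took 20.2 to 27.1%. All 6 epithelial markers were detected, with a summed level of 933 to 1372 CPM (counts scaled to a common library size) over the libraries. Endothelial markers summed to at most 1.74 CPM, with CDH5 at 0 in every library, and leukocyte markers to at most 1.55 CPM, with CD3E and CD14 at 3 or fewer counts in every library. Of the 8 stromal markers DCN was at 3 or fewer counts in every library, and the 5 that are not collagens summed to at most 3.95 CPM. With the collagens COL1A1, COL1A2 and COL3A1, which are members, all 8 summed to 127 to 645 CPM over the libraries.

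The members were unevenly expressed. Of the 82, 51 had at least 10 counts in every library, 11 never exceeded 3 counts, and COL22A1 and ITGA8 had none. Levels of different genes were compared as RPKM (CPM per kilobase of exon). The subunit ITGB1, shared by most matrix-binding integrins, had the highest level in the vehicle control cultures at 69.8 ± 0.72 RPKM (SD, n = 3), followed by LAMC1 at 57.4 ± 1.79. ITGA6 followed at 42.5 ± 1.92, COL6A1 at 40.7 ± 2.60 and ITGAV at 36.8 ± 0.45, and the first 2 of these differed by less than their combined spread. Among collagens COL9A2 at 23.9 ± 2.42, COL1A2 at 23.9 ± 1.20, COL6A2 at 19.1 ± 1.63 and COL12A1 at 17.2 ± 1.00 RPKM came after COL6A1, and the first pair could not be ordered. Type IV collagen was led by COL4A5 at 8.69 ± 0.48, above COL4A2 at 3.65 ± 0.18, COL4A4 at 3.05 ± 0.17 and COL4A1 at 2.24 ± 0.10 RPKM. Among the laminin alpha chains LAMA5 at 22.8 ± 0.51 RPKM was far above LAMA3 at 1.32 ± 0.13.

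**Figure D1:**
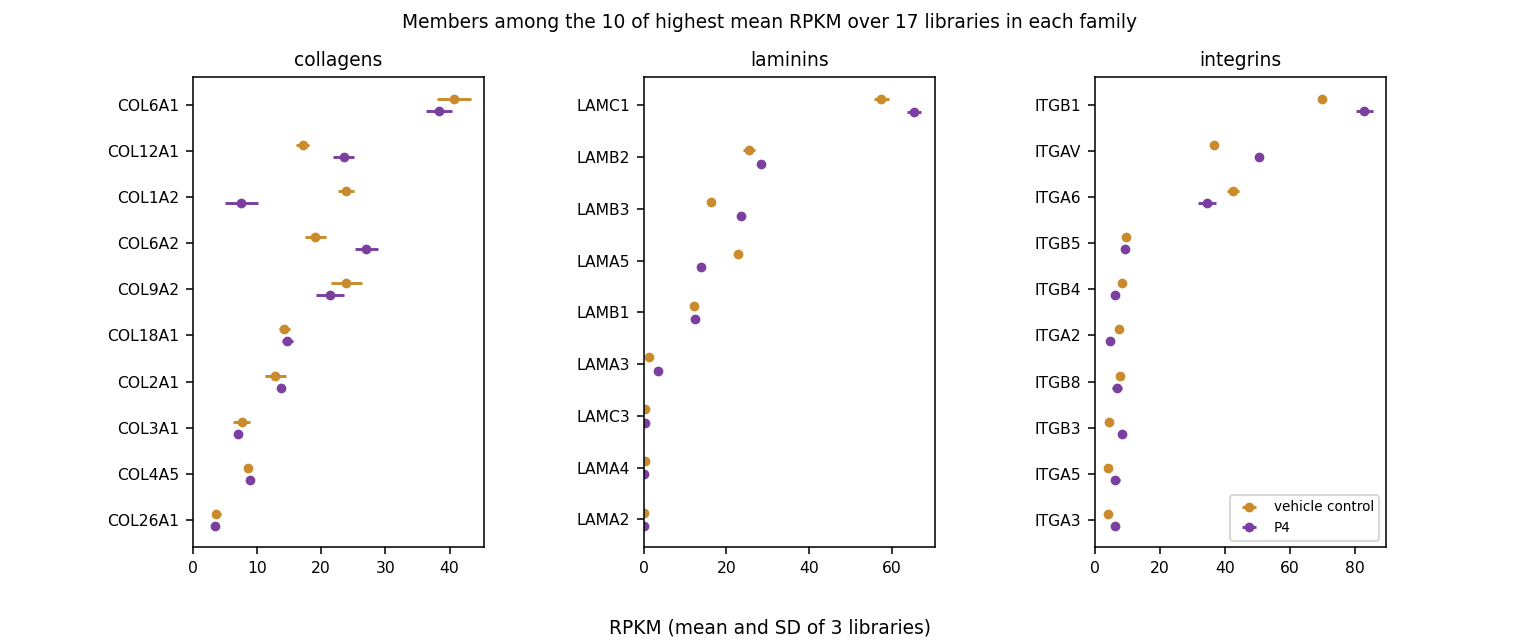
RPKM on the horizontal axis of the 10 members with the highest mean over all libraries in each of 3 families, of which 9 are drawn for the laminins, in vehicle control and P4 cultures (points are means and bars SD of 3 libraries). COL1A2 and LAMA5 were lower and COL6A2, COL12A1, LAMB3 and ITGAV higher in P4 cultures, while COL6A1, LAMC1 and ITGB1 had the highest level of their families in both groups.

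To describe how P4 treatment altered the matrix genes, P4 cultures were compared with vehicle control cultures using edgeR's quasi-likelihood test, and genes with a Benjamini-Hochberg adjusted p under 0.05 over all genes tested are given as DEGs. Among the 59 members with enough counts to be tested, 39 were DEGs, 25 higher and 14 lower in P4 cultures. This is 42.4% higher and 23.7% lower, against a background of 30.4% higher and 27.8% lower among the 12854 protein-coding genes tested. The same background applies to the families and classes given below for this comparison. The median log2 fold change was 0.13 over the members tested and 0.01 over coding genes. The libraries of these groups did not overlap for 41 of the 59 members and for 8370 of the 12854 coding genes. Lack of overlap was therefore common among all genes. Changes beyond 1 on the log2 scale were seen for 4 members in each direction: COL16A1, ITGA11, LAMA3 and COL8A2 were higher, and ITGA10, LAMA4, COL1A2 and ITGA4 were lower. Upper-quartile scaling moved the median of all genes tested from -0.01 to -0.10, and with it the collagens split into 7 higher and 7 lower rather than 10 and 5.

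**Figure D2:**
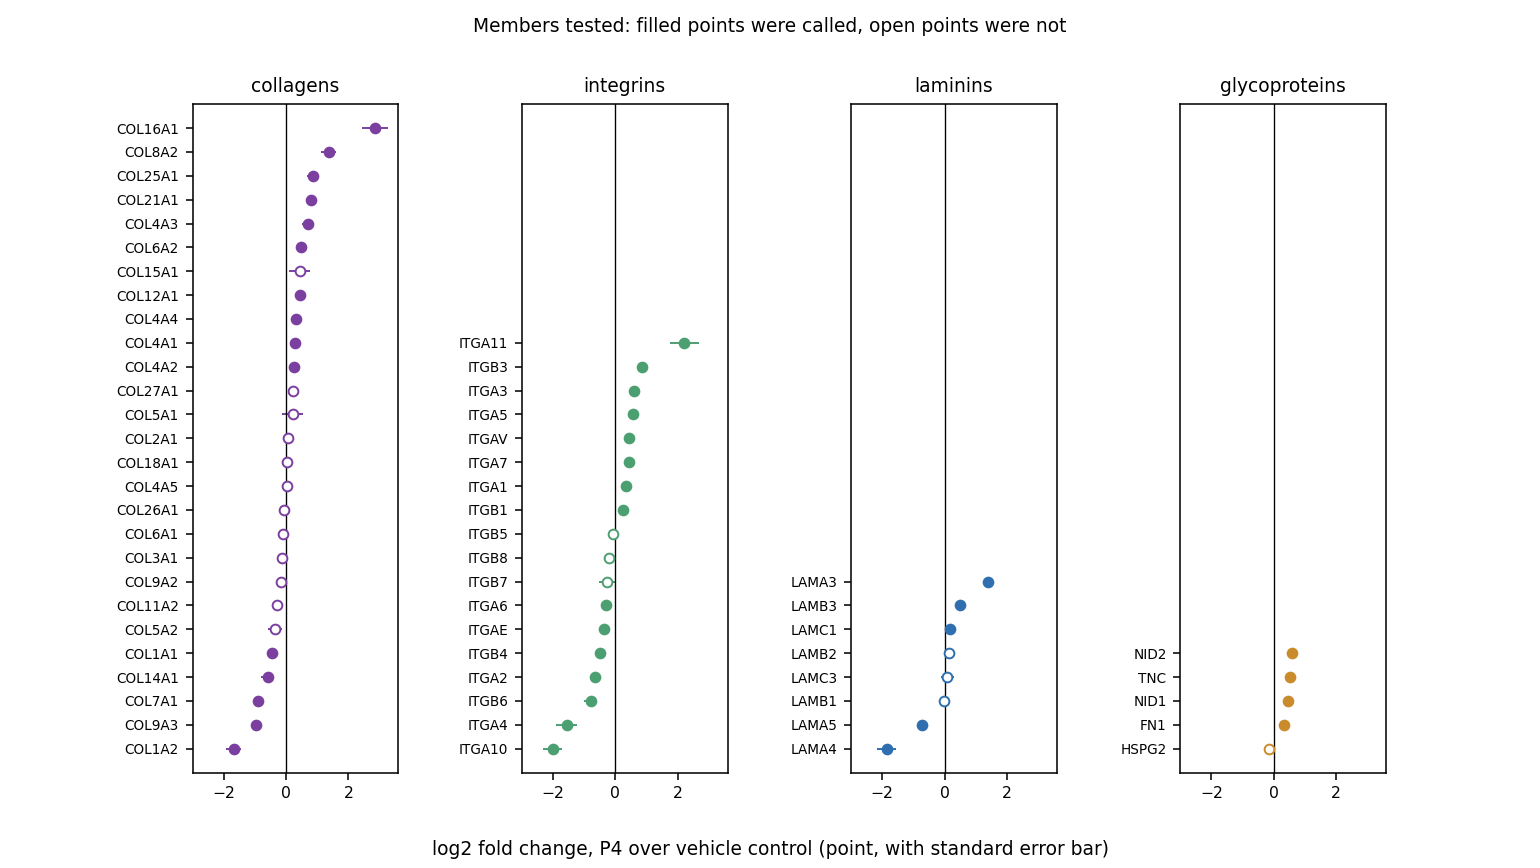
Log2 fold change of P4 over vehicle control (horizontal axis) for 58 of the 59 members tested, by family, with standard errors as bars. Filled points were DEGs and open points were not: 10 collagens, 8 integrins, 3 laminins and 4 glycoproteins were higher, while 5, 7, 2 and none were lower.

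Among the fibrillar collagens, which give interstitial tissue its tensile strength, no DEG was higher in P4 than in vehicle control cultures. Of the 8 tested 2 fell, and both were chains of type I collagen. COL1A2 measured 278, 252 and 270 CPM in vehicle control cultures, and 113, 55.1 and 85.5 CPM in P4 cultures. Every P4 library was below every vehicle control library, and the P4 libraries differed among themselves by more than the vehicle control libraries did. The log2 fold change was -1.67 ± 0.24 (SE), with an adjusted p of 0.0014. COL1A1, the partner chain, measured 26.4, 32.6 and 30.8 CPM against 20.4, 24.7 and 22.8 CPM, and fell by 0.44 ± 0.11 (adjusted p = 0.0045). The remaining 6 fibrillar chains did not pass the test, among them COL3A1 at 41.7 to 58.0 CPM in vehicle control and 45.1 to 53.1 CPM in P4 cultures. Against control cultures 2 fibrillar chains were called higher and 2 lower of 8 tested, with 30.2% and 28.5% among coding genes. The same counts held against Vehicle Nap cultures, with 28.8% and 25.5% among coding genes.

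COL1A1, COL1A2 and COL3A1 also serve as stromal markers. The 5 stromal markers outside the module were near the limit of detection. Their sum was lower too, at 2.36 to 2.87 CPM in vehicle control and 0.515 to 1.44 CPM in P4 libraries. Of all 8 stromal markers 5 had enough counts to be tested, the collagens among them. Of these 4 were called lower and 1, COL3A1, was not called, with 27.8% lower among coding genes. The 6 epithelial markers summed to 1171 to 1175 CPM in vehicle control and 933 to 1085 CPM in P4 libraries. They did not move as a set: 2 were called higher, 3 lower and 1 was not called. The part of the stromal and epithelial markers in the result for COL1A2 was not tested. In cultures measured in bulk, fewer cells of a kind and less RNA per cell cannot be told apart.

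Network-forming collagens were higher or not called. Of the 6 tested 5 rose, and the only one that did not pass was COL4A5 at 99.2 to 110 CPM against 99.6 to 113 CPM in P4 cultures. COL8A2, a short-chain network collagen, had the largest change of these, from 1.34, 1.77 and 2.41 CPM to 5.00, 4.21 and 6.02 CPM (log2 fold change 1.38 ± 0.24, adjusted p = 4.6e-04). Genes of type IV collagen lie in head-to-head pairs. COL4A3 rose by 0.69 ± 0.19 (adjusted p = 0.0078) and COL4A4 by 0.33 ± 0.10 (adjusted p = 0.012). COL4A1 rose by 0.29 ± 0.09 (adjusted p = 0.013) and COL4A2 by 0.26 ± 0.07 (adjusted p = 0.0072). Upper-quartile scaling left COL4A1, COL4A2 and COL4A4 short of the threshold, and leaving out vehicle control replicate 3 did so for COL4A1, COL4A3 and COL4A4. COL4A1 also lost its call without vehicle control replicate 2 or P4 replicate 3. COL4A6, which shares its promoter region with COL4A5, had too few counts for this test at 0.442 to 1.15 CPM in vehicle control and 0.305 to 0.480 CPM in P4 cultures.

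The promoter windows of COL4A3 (chr2:227164374-227164673, plus strand) and COL4A4 (chr2:227164156-227164455, minus strand) are shown because both genes rose and the windows share 82 bp. They come from RefSeq on GRCh38.p14 and run from 250 bases before to 50 bases after the start. Capitals mark the SP1 box (GGGCGG on either strand), of which COL4A3 held 2 and COL4A4 held none.
COL4A3: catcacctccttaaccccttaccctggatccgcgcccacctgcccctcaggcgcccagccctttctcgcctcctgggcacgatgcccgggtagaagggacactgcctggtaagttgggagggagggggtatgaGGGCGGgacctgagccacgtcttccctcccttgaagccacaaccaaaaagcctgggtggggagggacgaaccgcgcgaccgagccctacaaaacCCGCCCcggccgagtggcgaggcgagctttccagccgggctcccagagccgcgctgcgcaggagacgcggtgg
COL4A4: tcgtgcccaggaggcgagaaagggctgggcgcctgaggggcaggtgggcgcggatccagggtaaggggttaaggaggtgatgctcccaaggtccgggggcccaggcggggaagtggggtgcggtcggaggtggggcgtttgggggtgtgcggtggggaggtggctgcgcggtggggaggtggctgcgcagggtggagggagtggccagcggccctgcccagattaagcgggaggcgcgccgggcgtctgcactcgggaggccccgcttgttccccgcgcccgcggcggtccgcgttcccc
Neither window held the letters CCAAT of the box with that name, a TATA box (TATAAA), an AP-1 site (TGACTCA), the core of a steroid receptor site (TGTTCT) or an amino acid response core (TGATGNAA), each searched on both strands. The windows of COL4A1 and COL4A2 shared 226 bp, and those of COL4A5 and COL4A6 shared 121 bp.

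The other collagens changed in both directions. Among the FACIT collagens, which decorate fibrils, COL16A1 measured 0.383, 0.810 and 0.322 CPM in vehicle control and 2.21, 5.07 and 4.73 CPM in P4 cultures. This was the largest fold change of any member (log2 2.86 ± 0.42, adjusted p = 1.2e-04), from a very low level, and the groups did not overlap. COL21A1 rose from 4.21, 4.64 and 4.34 CPM to 7.01, 8.41 and 7.85 CPM (log2 0.79 ± 0.16, adjusted p = 0.0011). COL12A1 rose by 0.44 ± 0.07 (adjusted p = 2.5e-04). COL9A3 fell by 0.95 ± 0.13 (adjusted p = 7.9e-05), from 24.7, 22.3 and 18.5 CPM to 12.0, 9.87 and 11.8 CPM. In P4 against control cultures COL12A1 was lower and COL9A3 did not pass the test, as given below. COL14A1 fell by 0.59 ± 0.21 (adjusted p = 0.028), a call lost when vehicle control replicate 1 or 3, or P4 replicate 2 or 3, was left out.

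COL7A1, which forms the anchoring fibrils that hold epithelial basement membranes to the tissue below, was lower in every P4 library. It measured 42.7, 45.5 and 37.9 CPM in vehicle control and 23.3, 23.3 and 22.0 CPM in P4 cultures (log2 -0.89 ± 0.10, adjusted p = 9.9e-06). The neighbouring chains of type VI collagen differed: COL6A2 rose by 0.49 ± 0.08 (adjusted p = 2.1e-04), while COL6A1 measured 202 to 230 CPM in vehicle control and 193 to 215 CPM in P4 cultures and did not pass the test (log2 -0.10 ± 0.07, adjusted p = 0.24). COL25A1, a transmembrane collagen, rose by 0.87 ± 0.18 (adjusted p = 0.0017) from 3.30 to 4.21 CPM to 5.76 to 7.73 CPM. Neither multiplexin passed, with COL18A1 at 113 to 127 CPM and 119 to 133 CPM.

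**Figure D3:**
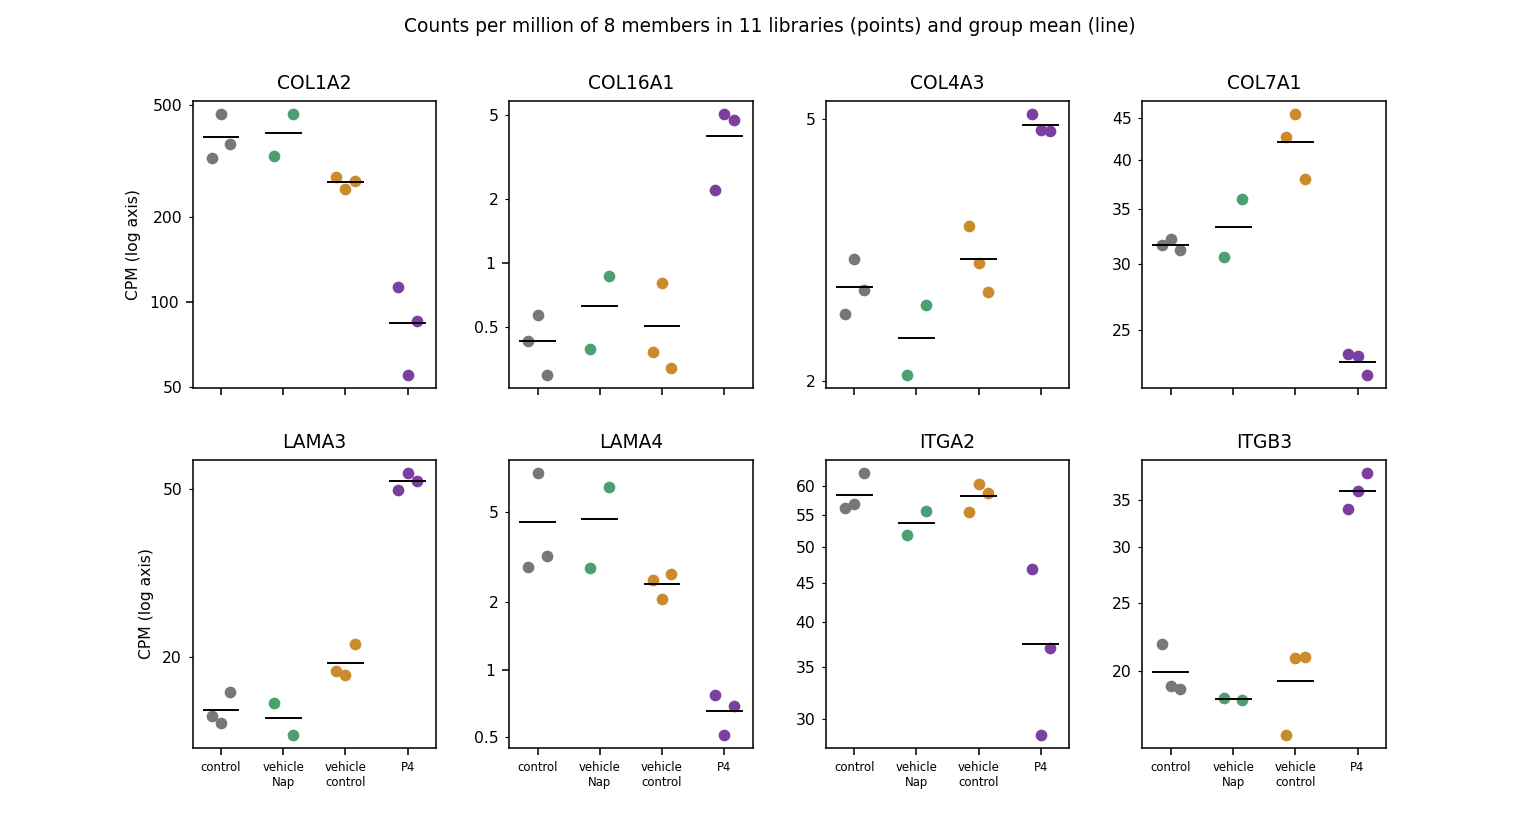
CPM on a log axis of 8 members in control, Vehicle Nap, vehicle control and P4 cultures (points are libraries, lines group means). COL16A1, COL4A3, LAMA3 and ITGB3 were highest and COL1A2, COL7A1, LAMA4 and ITGA2 lowest in the P4 libraries, with no overlap with the vehicle control libraries.

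Each of the 3 laminin alpha chains with enough counts changed. These chains carry the sites that integrins bind. LAMA3, a chain of the laminin in epithelial anchoring complexes, measured 18.6, 18.1 and 21.5 CPM in vehicle control and 49.6, 54.4 and 52.3 CPM in P4 cultures. All P4 libraries were well above all vehicle control libraries, and the log2 fold change was 1.40 ± 0.09 (adjusted p = 2.2e-07). LAMA5, a major chain of mature epithelial basement membranes, fell from 328, 332 and 318 CPM to 205, 195 and 194 CPM (log2 -0.73 ± 0.06, adjusted p = 1.2e-06). As given below, this P4 level of LAMA5 overlapped the range of the control cultures. LAMA4, found mostly in vessels and mesenchyme, fell from 2.49, 2.06 and 2.65 CPM to 0.768, 0.515 and 0.686 CPM (log2 -1.86 ± 0.30, adjusted p = 2.3e-04). Per length, LAMA3 rose to 3.55 ± 0.17 RPKM and LAMA5 fell to 13.9 ± 0.40 RPKM (SD, n = 3), so LAMA5 remained the higher of the alpha chains.

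Changes of the beta and gamma chains were smaller. LAMB3, the beta chain that pairs with LAMA3, rose by 0.50 ± 0.07 (adjusted p = 4.2e-05), from 76.7, 79.1 and 74.6 CPM to 107, 110 and 113 CPM. LAMC1, the common gamma chain, rose by 0.17 ± 0.06 (adjusted p = 0.026), but lost the call under upper-quartile scaling and without P4 replicate 3 or any 1 of the vehicle control replicates. LAMB1 and LAMB2 did not pass, at log2 -0.01 ± 0.08 and 0.13 ± 0.06. LAMB4 had at most 3 counts in any library.

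The window of LAMA3 (chr18:23872770-23873069, plus strand, GRCh38.p14) is shown because LAMA3 had the largest rise of the laminins and its window was among the few members' windows with AP-1 letters. This start lies inside the gene (23689443 to 23956222), downstream of its outermost start in GENCODE 29. Capitals mark 2 AP-1 sites (TGACTCA or its reverse complement) and 1 SP1 box, which did not overlap.
LAMA3: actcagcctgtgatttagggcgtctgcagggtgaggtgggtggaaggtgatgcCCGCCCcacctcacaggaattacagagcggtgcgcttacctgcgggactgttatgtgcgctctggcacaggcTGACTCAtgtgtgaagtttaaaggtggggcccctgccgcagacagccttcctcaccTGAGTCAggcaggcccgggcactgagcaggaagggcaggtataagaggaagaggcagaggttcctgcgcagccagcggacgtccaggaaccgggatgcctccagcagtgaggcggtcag
AP-1 letters occurred in 3 of 80 windows of the members (3.75%) and in 4.95% of all 35116 RefSeq windows. The SP1 box occurred in 58.8% against 45.0%, the CCAAT box in 27.5% against 34.6%, the TATA box in 12.5% against 11.5%, the receptor core in 13.8% against 14.8% and the amino acid response core in 2.50% against 3.62%. The median GC content was 63.3% in the members' windows and 58.7% in all windows, and 61 members had a window.

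All 5 glycoproteins were tested and 4 rose. NID2 measured 25.1, 24.8 and 25.0 CPM in vehicle control and 36.7, 40.2 and 37.6 CPM in P4 cultures (log2 0.60 ± 0.08, adjusted p = 9.0e-05). NID1 rose by 0.46 ± 0.11 (adjusted p = 0.0034), from 17.6, 23.6 and 23.3 CPM to 30.3, 30.1 and 31.3 CPM. FN1 rose by 0.34 ± 0.08 (adjusted p = 0.0035), from 65.6, 78.0 and 75.7 CPM to 87.3, 96.9 and 98.6 CPM. TNC, an anti-adhesive glycoprotein, rose by 0.53 ± 0.07 (adjusted p = 3.4e-05), but was lower than in control cultures, as given below. HSPG2 measured 202 to 208 CPM in vehicle control and 187 to 193 CPM in P4 cultures, with an adjusted p of 0.063, and was called lower with upper-quartile scaling and when only genes with 10 counts in every library were kept. In GENCODE 29, exons of RTRAF on the other strand cover 30.0% of the exonic bases of NID2 and those of LDLRAD2 cover 11.7% of HSPG2. The strand setting of the counting is not given in the sources used here.

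Integrin subunits divided almost evenly, with 8 higher and 7 lower of 18 tested, beside 30.4% higher and 27.8% lower among coding genes. Both tested alpha subunits of the RGD-binding receptors rose. ITGAV measured 306, 302 and 298 CPM in vehicle control and 407, 415 and 424 CPM in P4 cultures (log2 0.45 ± 0.06, adjusted p = 3.7e-05). ITGA5, the fibronectin receptor subunit, rose by 0.56 ± 0.15 (adjusted p = 0.0074), with P4 replicate 1 at 59.9 CPM above the others at 39.5 and 43.3 CPM. ITGB3, whose dimer with ITGAV is the vitronectin receptor studied as a marker of endometrial receptivity, rose from 16.3, 20.9 and 21.0 CPM to 34.0, 36.1 and 38.2 CPM (log2 0.85 ± 0.11, adjusted p = 3.1e-05). Exons of the same-strand gene AC068234.1 cover 51.6% of the exonic bases of ITGB3, so its count depends on how shared reads were handled. ITGB6, another partner of ITGAV, fell by 0.79 ± 0.21 (adjusted p = 0.0064), a call that was lost without vehicle control replicate 2. Exons of the same-strand gene AC092153.1 cover 20.6% of the exonic bases of ITGB6.

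Subunits that bind collagen moved in opposite directions. ITGA2, an epithelial collagen receptor subunit, fell from 55.5, 60.2 and 58.6 CPM to 46.8, 28.7 and 37.1 CPM (log2 -0.65 ± 0.14, adjusted p = 0.0019). ITGA10 fell from 3.64, 3.17 and 3.05 CPM to 1.15, 0.859 and 0.457 CPM (log2 -2.01 ± 0.31, adjusted p = 1.5e-04). ITGA1 rose by 0.33 ± 0.09 (adjusted p = 0.010), a call lost without vehicle control replicate 3. ITGA11 rose from 0.383, 0.368 and 0.0804 CPM to 0.961, 1.46 and 1.30 CPM (log2 2.22 ± 0.48, adjusted p = 0.0019), on at most 19 counts in any of the 17 libraries. These groups did not overlap for any of the 4 subunits, nor for 8370 of the 12854 coding genes.

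Laminin-binding subunits changed in both directions. ITGA6, the most abundant by RPKM, fell from 279, 289 and 264 CPM to 233, 205 and 238 CPM (log2 -0.31 ± 0.07, adjusted p = 0.0027). Its hemidesmosomal partner ITGB4 fell by 0.48 ± 0.08 (adjusted p = 3.6e-04), from 51.9, 59.1 and 57.7 CPM to 42.9, 39.5 and 40.4 CPM. ITGA3 rose by 0.59 ± 0.09 (adjusted p = 1.3e-04), from 39.6, 41.2 and 37.1 CPM to 54.0, 59.4 and 65.5 CPM. ITGB1 rose by 0.23 ± 0.06 (adjusted p = 0.0047), from 414 to 423 CPM to 480 to 509 CPM. Of the remaining alpha subunits, ITGA4 fell by 1.56 ± 0.34 (adjusted p = 0.0022), from 3.06, 2.50 and 1.61 CPM to 1.06, 0.601 and 0.686 CPM.

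The vehicle was compared with the control cultures to show how far it moved the members by itself. Of 59 members tested, 14 were higher and 6 lower in vehicle control cultures, or 23.7% and 10.2%, against 12.6% higher and 11.5% lower among coding genes. Without vehicle control replicate 3 the count of 20 fell to 12. The libraries of these groups did not overlap for 25 of the 59 members and 5197 of 12855 coding genes. TNC had the largest change of those called. It measured 249, 219 and 223 CPM in control cultures and 87.6, 80.9 and 81.4 CPM in vehicle control cultures, a log2 fold change of -1.47 ± 0.08 (adjusted p = 4.3e-12). The P4 cultures, at 121, 117 and 127 CPM, lay between these groups without overlapping either, so TNC was higher than in vehicle control but lower than in control cultures (log2 -0.95 ± 0.09, adjusted p = 1.5e-07).

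COL12A1 had the same order, with 344, 372 and 388 CPM in control, 200, 219 and 224 CPM in vehicle control and 270, 311 and 299 CPM in P4 cultures. It fell by 0.77 ± 0.07 in vehicle control (adjusted p = 1.7e-07) and by 0.35 ± 0.09 in P4 cultures (adjusted p = 0.0042), both against control. LAMA5 had the opposite order: 211, 167 and 164 CPM in control cultures rose to 318 to 332 CPM in vehicle control cultures (log2 0.85 ± 0.09, adjusted p = 3.9e-07). Its P4 level of 194 to 205 CPM overlapped the control range, and the difference from control did not pass the test (log2 0.11 ± 0.10, adjusted p = 0.38). Against Vehicle Nap cultures LAMA5 was called higher in P4 cultures (log2 0.26), opposite to its fall against vehicle control. That call was lost under upper-quartile scaling, with all groups in 1 fit and with the replicate block. It was also lost without either Vehicle Nap replicate or P4 replicate 3. COL9A3 rose by 0.81 ± 0.13 in vehicle control (adjusted p = 2.4e-04), from 11.2, 14.7 and 10.6 CPM, and did not pass the test in P4 against control cultures (log2 -0.15 ± 0.15, adjusted p = 0.44). COL7A1 rose by 0.41 ± 0.09 in vehicle control (adjusted p = 0.0024) and fell by 0.49 ± 0.10 in P4 against control cultures (adjusted p = 5.9e-04).

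HSPG2 was raised in both. It measured 134, 104 and 110 CPM in control and 202, 208 and 207 CPM in vehicle control cultures (log2 0.83 ± 0.08, adjusted p = 3.6e-07), and in P4 cultures it was 0.68 ± 0.10 above control on the log2 scale (adjusted p = 2.0e-05). ITGB8, an integrin that activates TGF-beta, measured 69.3, 75.9 and 85.0 CPM in control and 125, 114 and 116 CPM in vehicle control cultures (log2 0.63 ± 0.08, adjusted p = 1.0e-05). Its P4 libraries spread from 80.9 to 128 CPM, across the vehicle control range. These comparisons share libraries, so their fold changes are not independent.

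**Figure D4:**
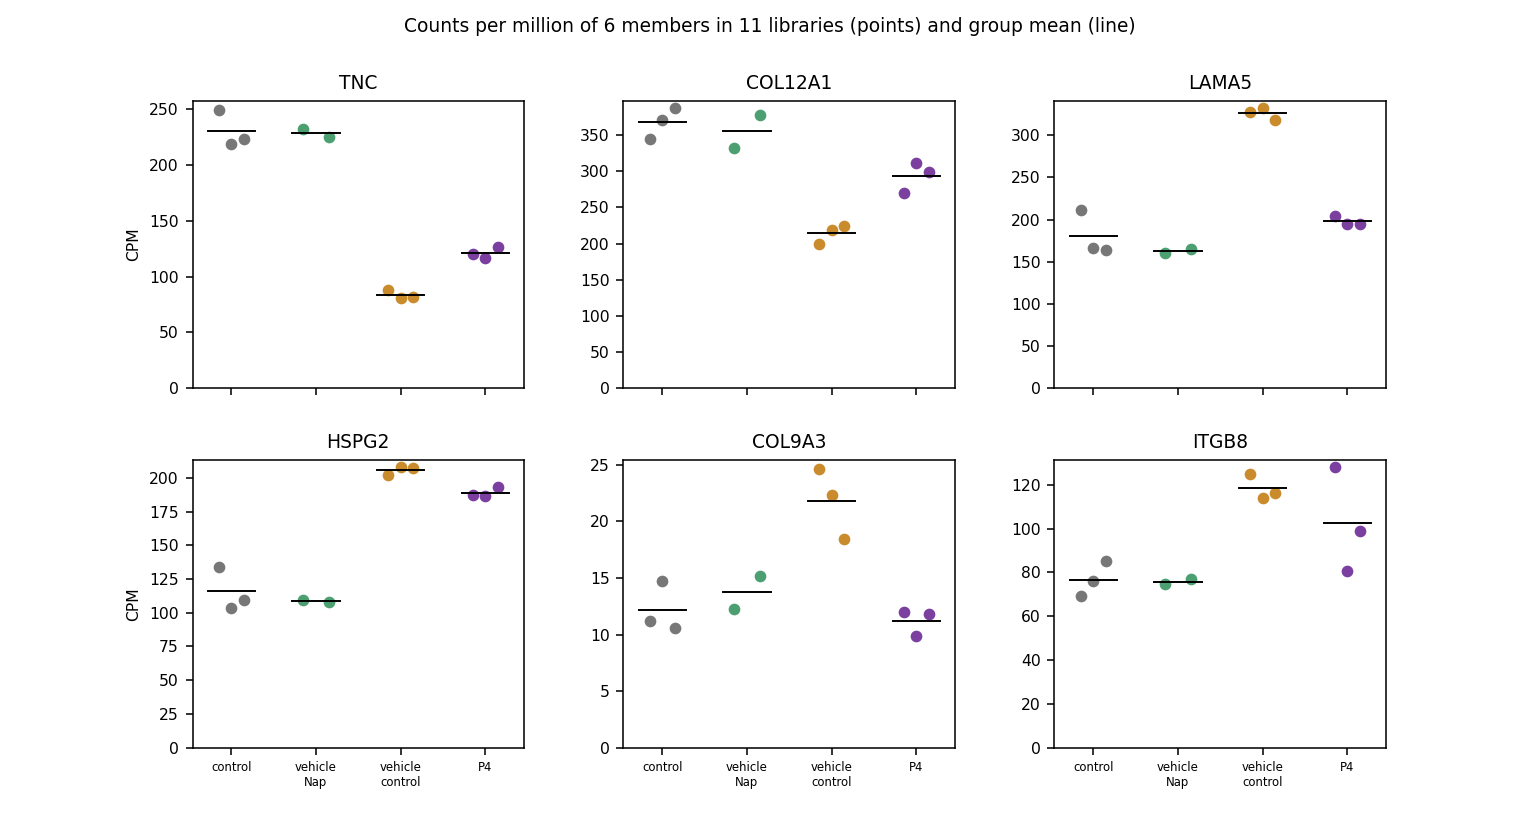
CPM on linear axes from 0 of 6 members in control, Vehicle Nap, vehicle control and P4 cultures (points are libraries, lines group means). Vehicle control libraries were lowest for TNC and COL12A1, and for LAMA5, HSPG2, COL9A3 and ITGB8 they lay above all control and Vehicle Nap libraries.

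Windows of TNC (chr9:115118108-115118407, minus strand, GRCh38.p14) and LAMA5 (chr20:62367263-62367562, minus strand) are shown because these genes had large changes in opposite directions in the vehicle comparison. Capitals mark SP1 boxes on either strand, 1 in TNC and 5 in LAMA5, and no other motif searched was found in either.
TNC: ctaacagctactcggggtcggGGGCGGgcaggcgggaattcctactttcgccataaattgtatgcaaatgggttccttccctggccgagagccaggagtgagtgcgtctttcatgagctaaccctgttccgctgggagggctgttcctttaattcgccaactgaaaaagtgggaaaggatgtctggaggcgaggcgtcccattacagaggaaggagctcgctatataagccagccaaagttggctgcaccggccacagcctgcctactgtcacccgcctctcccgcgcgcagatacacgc
LAMA5: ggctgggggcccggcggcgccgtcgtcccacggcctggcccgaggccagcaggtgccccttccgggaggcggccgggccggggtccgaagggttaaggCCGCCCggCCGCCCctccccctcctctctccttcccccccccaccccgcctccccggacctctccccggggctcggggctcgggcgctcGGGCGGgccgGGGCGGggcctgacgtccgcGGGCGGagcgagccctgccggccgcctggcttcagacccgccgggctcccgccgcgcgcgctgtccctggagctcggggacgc
The GC content was 57.3% in the window of TNC and 82.7% in that of LAMA5.

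Against the Vehicle Nap cultures, whose titles do not name ethanol, the vehicle control cultures had 16 members higher and 6 lower of 59 tested (27.1% and 10.2%), with 14.7% higher and 12.2% lower among coding genes. This count of 22 fell to 13 without vehicle control replicate 2 or replicate 3, and to 14 with DESeq2. The libraries did not overlap for 30 of the 59 members and 6767 of 12935 coding genes. TNC measured 232 and 225 CPM in Vehicle Nap cultures and was 1.46 ± 0.06 lower on the log2 scale in vehicle control (log2 -1.46, adjusted p = 3.8e-14). LAMA5 measured 161 and 164 CPM (log2 1.00 ± 0.06, adjusted p = 2.2e-11), HSPG2 110 and 108 CPM (log2 0.92 ± 0.06, adjusted p = 1.3e-10) and COL12A1 333 and 378 CPM (log2 -0.72 ± 0.06, adjusted p = 3.4e-08). The vehicle control libraries are the same as in the comparison with control cultures.

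P4 cultures were also set against the control and the Vehicle Nap cultures, whose titles do not name ethanol. Against control cultures 27 members were higher and 16 lower of 60 tested (45.0% and 26.7%), with 30.2% higher and 28.5% lower among coding genes. P4 and control libraries did not overlap for 45 of the 60 members and 8351 of 12866 coding genes. Against Vehicle Nap cultures 26 were higher and 16 lower of 60 (43.3% and 26.7%), with 28.8% higher and 25.5% lower among coding genes. The P4 libraries are shared by these comparisons and by that with vehicle control, so values are given side by side. LAMA3 was higher by a log2 of 1.40 against vehicle control, 1.78 against control and 1.83 against Vehicle Nap. COL1A2 had log2 fold changes of -1.67, -2.21 and -2.26, in the same order. NID2 had 0.60, 0.97 and 1.03, ITGB3 had 0.85, 0.83 and 0.95, and COL25A1 had 0.87, 1.81 and 1.86. All of these passed the test in each comparison. Vehicle control cultures were themselves called higher than control cultures for LAMA3, NID2 and COL25A1 (log2 0.95 for COL25A1), and lower for COL1A2. In that comparison the calls of LAMA3 and NID2 were lost without vehicle control replicate 3, and that of COL1A2 with all groups in 1 fit. COL1A1 was a DEG against vehicle control alone (log2 -0.44, -0.19 and -0.10), and ITGB4 likewise (log2 -0.48, -0.21 and -0.24), but a difference between these comparisons was not tested. ITGB4 lay close to the threshold. With upper-quartile scaling it was called in both other comparisons. It was also called against control without control replicate 3, and against Vehicle Nap without P4 replicate 1.

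Low-abundance COL4A6 could be tested against control cultures, where it measured 1.08, 1.35 and 0.891 CPM against 0.480, 0.429 and 0.305 CPM in P4 cultures (log2 -1.50 ± 0.39, adjusted p = 0.0034). Its head-to-head neighbour COL4A5 did not pass in that comparison (log2 0.23 ± 0.10, adjusted p = 0.055). COL3A1 differed between P4 and control cultures (log2 -0.93 ± 0.30, adjusted p = 0.048), but control replicate 2 at 131 CPM was far above the others at 60.3 and 80.6 CPM, and the call was lost when any 1 of the P4 replicates was left out. COL6A1 was lower by 0.43 ± 0.10 (log2 -0.43, adjusted p = 0.0014) and COL6A2 higher by 0.41 ± 0.12 (adjusted p = 0.0064), so the neighbouring type VI genes differed in direction there. The call of COL6A2 was lost without control replicate 1 or replicate 3.

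Among the 6 libraries with conflicting PSAT1 labels, the 3 titled PSAT1 were compared with the 3 titled PSAT1_P4. Of 61 members tested, 26 were higher and 18 lower in the libraries titled PSAT1 (42.6% and 29.5%), with 35.3% higher and 31.7% lower among coding genes. LAMA3 measured 43.7, 55.9 and 52.3 CPM in libraries titled PSAT1 and 14.8, 12.2 and 13.5 CPM in those titled PSAT1_P4 (log2 1.88 ± 0.10, adjusted p = 9.7e-12). COL1A2 measured 94.0, 68.7 and 60.9 CPM against 335, 496 and 399 CPM (log2 -2.49 ± 0.24, adjusted p = 6.6e-04). The 5 stromal markers outside the module summed to 0.368 to 1.18 CPM in the libraries titled PSAT1 and 2.66 to 3.44 CPM in the others, and their part in the result for COL1A2 was not tested. NID2 measured 37.4, 39.2 and 36.5 CPM against 17.1, 20.6 and 19.1 CPM (log2 0.97 ± 0.09, adjusted p = 2.5e-08). Neither set overlapped the other for these genes, and which set received P4 cannot be told from the labels. The sets did not overlap for 46 of the 61 members and 9150 of 12863 coding genes.

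TNC measured 123, 122 and 129 CPM in the libraries titled PSAT1 and 216, 225 and 222 CPM in those titled PSAT1_P4 (log2 -0.85 ± 0.06, adjusted p = 3.0e-10). ITGB3 was higher by 0.79 ± 0.10 (adjusted p = 9.9e-07), ITGAV by 0.54 ± 0.06 (adjusted p = 1.5e-07) and COL16A1 by 3.23 ± 0.33 (adjusted p = 6.8e-08), each on the log2 scale, in the libraries titled PSAT1. LAMA5 and HSPG2 did not pass the test. In the set titled PSAT1_P4 replicate 1 stood below the others for both, at 177 CPM against 252 and 262 CPM for LAMA5 and 121 CPM against 181 and 177 CPM for HSPG2. LAMA5 was called lower in the libraries titled PSAT1 without that replicate and under 6 of the 7 other settings, RLE scaling being the exception, so its result lay close to the threshold (adjusted p = 0.064). COL4A6 measured 0.0982, 0.184 and 0.105 CPM, at 3 or fewer counts per library, in the libraries titled PSAT1 and 0.955, 1.67 and 1.41 CPM in the other set.

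**Figure D5:**
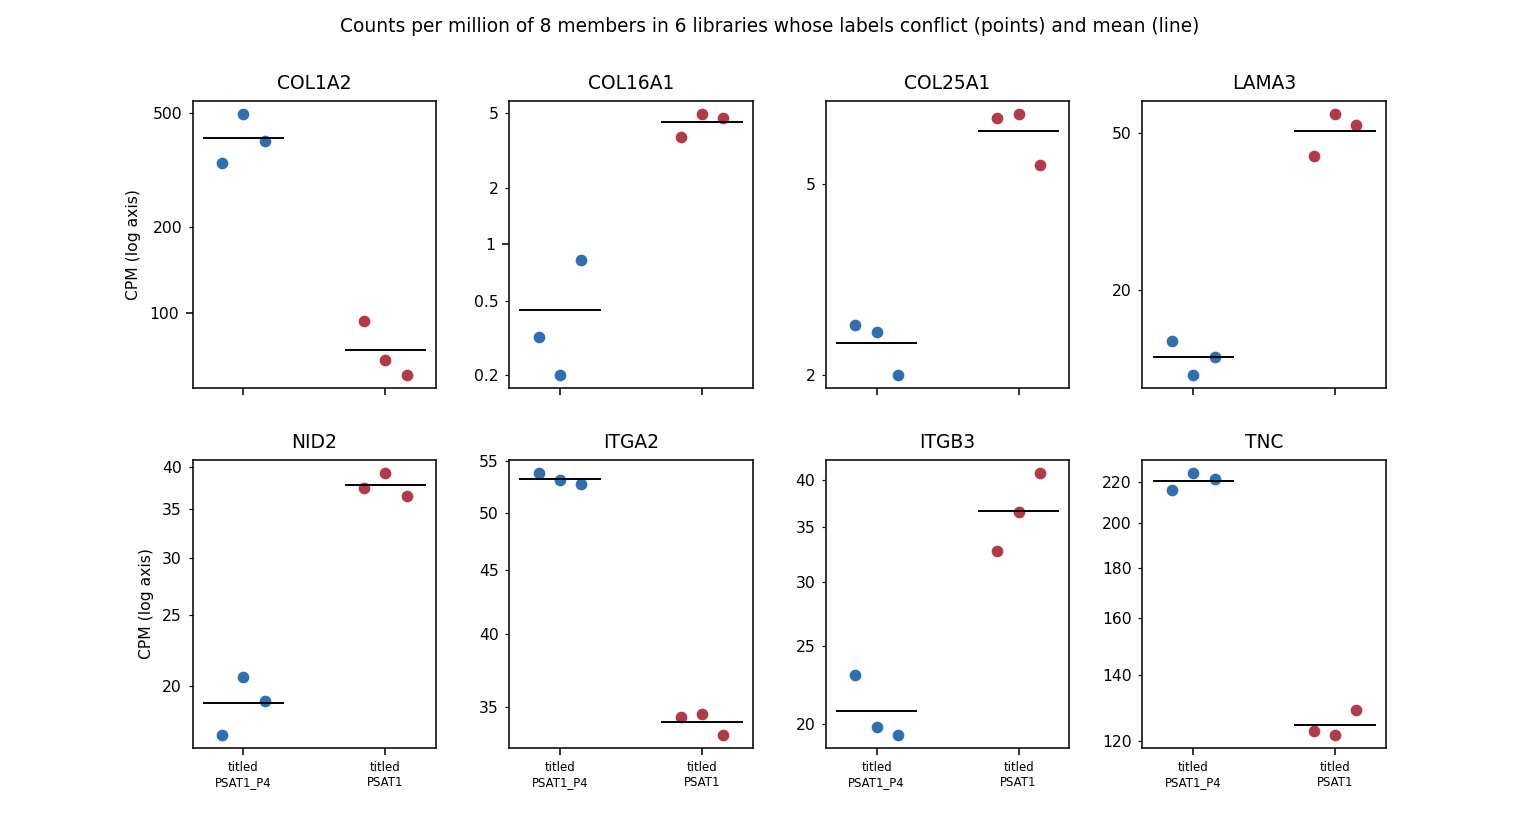
CPM on a log axis of 8 members in the 3 libraries titled PSAT1_P4 and the 3 titled PSAT1 (points are libraries, lines means). COL16A1, COL25A1, LAMA3, NID2 and ITGB3 were higher and COL1A2, ITGA2 and TNC lower in the libraries titled PSAT1, with no overlap.

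Other genes of matrix biology were read from lists of enzymes, ligands, proteases and adhesion proteins, in P4 against vehicle control cultures. The coding background for each list was 30.4% higher and 27.8% lower. Of 28 genes for collagen folding, modification, export and cross-linking, 26 were tested, and 7 rose and 5 fell. LOX, which cross-links collagen, rose from 14.9 to 17.3 CPM to 59.8 to 96.2 CPM (log2 2.21 ± 0.16). P4HA2, a collagen prolyl hydroxylase subunit, rose by 1.05 ± 0.09 and the export receptor MIA3 by 0.69 ± 0.08. LOXL1 fell by 1.10 ± 0.20, P3H4 by 0.69 ± 0.11 and the collagen galactosyltransferase COLGALT1 by 0.58 ± 0.09.

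Of 28 further matrix ligands and receptors 22 were tested, and 6 rose and 6 fell. NTN4, a netrin that binds laminin, rose by 1.15 ± 0.19, the microfibril protein FBN1 by 0.75 ± 0.09 and the matricellular CCN2 by 0.75 ± 0.12. DAG1, which encodes the laminin receptor dystroglycan, fell from 242 to 271 CPM to 95.1 to 123 CPM (log2 -1.28 ± 0.09). VCAN fell by 0.71 ± 0.08 and FBN2 by 0.59 ± 0.07. CCN2 also differed with the vehicle: it measured 2.13 to 4.84 CPM in control and 81.7 to 115 CPM in vehicle control cultures (log2 4.80 ± 0.24, adjusted p = 2.3e-05).

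Of 28 matrix proteases and their inhibitors 17 were tested, and 4 rose and 5 fell. The urokinase gene PLAU rose from 1.15 to 1.40 CPM to 7.30 to 11.5 CPM (log2 2.88 ± 0.24), ADAMTS1 by 2.02 ± 0.23 and the serpin SERPINE2 by 1.90 ± 0.16. The membrane metalloproteinases MMP16 and MMP15 fell by 1.41 ± 0.19 and 0.84 ± 0.13. PLAT, the other plasminogen activator, measured 1.72 to 1.77 CPM in vehicle control and 0.152 to 0.192 CPM in P4 libraries, which is 3 or fewer counts in each. Of 26 adhesion proteins that act at the cytoplasmic side of integrins or beside them 9 rose and 5 fell. FERMT2, an integrin activator, rose by 1.53 ± 0.10, the focal adhesion kinase gene PTK2 by 0.52 ± 0.07 and LIMS1 by 0.49 ± 0.07, while TNS2 fell by 1.26 ± 0.13, TNS3 by 0.82 ± 0.08 and the laminin-binding integrin partner CD151 by 0.43 ± 0.07. Every gene named from these lists had an adjusted p under 0.05 by edgeR's quasi-likelihood test, and the coding background was the same 30.4% and 27.8%.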

How the data were processed

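The authors sequenced stranded total RNA libraries (single end). After adapter trimming (Cutadapt) and a quality filter, reads that Subread placed uniquely were assigned to genes by featureCounts with GENCODE 31 on GRCh38, and the authors deposited these raw counts without normalization. Versions of these tools and the strand setting are not given in the sources used here. Multi-copy or overlapping exons can therefore lose or share reads.

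Columns were matched to samples by name, and 0 were left unused. Levels are CPM (counts scaled to a common library size) with TMM factors over 17 libraries, and RPKM is CPM per kilobase of GENCODE 29 exons. Each comparison was fitted with its own groups in edgeR 4.0.16 (R 4.3.3): filterByExpr with a minimum count of 10, TMM, robust quasi-likelihood fit and test, and Benjamini-Hochberg adjustment over all genes tested. The threshold for a call was an adjusted p of 0.05. The code was tested on simulated data. Background percentages cover protein-coding genes. The values of 1 member are not reported here, though it is included in all counts. Library totals ranged from 4999521 to 19704493 counts, which limits precision for members below about 1 CPM. Titles number the replicates as biological ones.

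Alternatives were DESeq2 1.42.0, RLE and upper-quartile scaling, no filter, at least 10 counts in every library, all 6 groups in 1 fit, the replicate number as a block, and each replicate left out. The members and lists were chosen with earlier results of these data known. Genes were named if they were glycoproteins, had the smallest adjusted p in P4 against vehicle control within their family and direction (5 collagens, 4 integrins, 3 laminins), were ITGB1, ITGAV or ITGB3, lay in 1 of 6 neighbouring pairs, or were among the 3 of highest RPKM in a family, and for the other lists if among the 3 smallest adjusted p in each direction. COL3A1, COL9A2, COL18A1, COL22A1, COL25A1, COL26A1, COL27A1, ITGA1, ITGA5, ITGA7, ITGA8, ITGAE, ITGB6 and ITGB8 fall outside this rule and were chosen after their values were seen.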

Additional observations from a re-analysis of the deposited data

How the results depend on the processing

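The count of members called in P4 against vehicle control cultures (39) ranged from 32 to 41 when each replicate was left out and from 34 to 40 under the other settings. Those of P4 against control (43), P4 against Vehicle Nap (42) and the PSAT1 titled sets (44) ranged from 38 to 44, 29 to 45 and 40 to 44 with replicates left out, and from 37 to 45, 34 to 45 and 40 to 48 otherwise. Vehicle control against control (20) ranged from 12 (without vehicle control replicate 3) to 25 with replicates left out, and from 15 to 26 otherwise. Vehicle control against Vehicle Nap (22) ranged from 13 (without vehicle control replicate 2, and also without replicate 3) to 25, and fell to 14 with DESeq2 and to 14 with all groups in 1 fit. The cause was not tested. Where 1 Vehicle Nap library was left, it was assumed to vary like the other group. No member called under both of the settings compared changed direction. Of the named members, only COL4A5 and LAMB1, neither of them called, changed sign in P4 against vehicle control: COL4A5 to -0.0670 with upper-quartile scaling, and LAMB1 to 0.0109 without the low-count filter and 5.7e-04 with all groups in 1 fit. With replicates left out COL4A5 ranged from -0.0237 (without P4 replicate 1) to 0.0696 and LAMB1 from -0.0657 to 0.0370 (without P4 replicate 2). Upper-quartile scaling moved the median log2 fold change of all genes tested to -0.10 in P4 against vehicle control and to -0.12 in the PSAT1 titled sets.

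Over genes with a mean of at least 1 CPM, deviations of same-numbered libraries correlated between -0.090 and 0.076 in the comparisons made here, so the replicate numbers were not taken to pair the samples of these comparisons. Control, Vehicle Nap and the libraries titled PSAT1_P4 were not checked against one another. With the replicate number as a block, 40 members were called in P4 against vehicle control, 26 in vehicle control against control, 40 in P4 against control, 35 in P4 against Vehicle Nap, 25 in vehicle control against Vehicle Nap and 47 in the PSAT1 titled sets. Members below about 1 CPM rest on few counts and were tested only where filterByExpr kept them.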

Other observations

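Some members outside the naming rule changed as well. COL26A1, an EMI-domain collagen, measured 20.7, 15.4 and 16.7 CPM in control, 14.4, 11.3 and 9.57 CPM in vehicle control and 11.6, 9.19 and 12.0 CPM in P4 cultures. It was lower than in control cultures in both (log2 -0.63 ± 0.14 with the vehicle, adjusted p = 0.0032, and -0.71 ± 0.15 with P4, adjusted p = 5.7e-04, edgeR). COL27A1, a fibrillar collagen of cartilage, measured 8.02 to 8.72 CPM in control, 9.16 to 12.3 CPM in vehicle control and 12.0 to 15 CPM in P4 cultures, and P4 cultures were above control (log2 0.62 ± 0.14, adjusted p = 0.0014). COL27A1 was also called higher in vehicle control than in control cultures, a call lost with DESeq2 and without vehicle control replicate 1 or 2, among other settings. It was not called in P4 against vehicle control. ITGAE, which pairs with ITGB7 to bind E-cadherin, measured 12.0 to 13.2 CPM in vehicle control and 9.61 to 10.3 CPM in P4 cultures (log2 -0.35 ± 0.12, adjusted p = 0.027), a call lost with DESeq2, without the low-count filter, and without vehicle control replicate 1 or 3 or P4 replicate 3. ITGA7, a laminin-binding subunit best known from muscle, rose from 8.80, 11.3 and 11.9 CPM to 14.3, 15.1 and 15.2 CPM (log2 0.43 ± 0.13, adjusted p = 0.012).

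Several matrix transcripts were highest in the library numbered 2 of the control, Vehicle Nap and titled PSAT1_P4 groups. COL3A1 measured 60.3, 131 and 80.6 CPM in control replicates 1, 2 and 3 and 63.3 and 119 CPM in Vehicle Nap replicates 1 and 2. In the libraries titled PSAT1_P4 it measured 63.1, 115 and 74.3 CPM. LAMA4 measured 2.85, 7.43 and 3.19 CPM, then 2.83 and 6.44 CPM, and 2.42, 4.86 and 2.82 CPM in the same order. FN1 measured 55.7, 75.4 and 56.8 CPM, then 53.9 and 77.7 CPM, and 53.8, 72.7 and 57.7 CPM. In vehicle control replicates COL3A1 measured 41.7, 58.0 and 56.4 CPM and LAMA4 measured 2.49, 2.06 and 2.65 CPM, and in P4 replicates 45.1, 46.8 and 53.1 CPM and 0.768, 0.515 and 0.686 CPM. These genes were picked after their values were seen, and no test was made.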
